A study of Homo sapiens with 10 samples.

Results

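Mitochondrial ribosomal protein genes were examined in DLD-1 cells, an established line from a human colorectal cancer, after stable knockdown of LMNB1, the gene of the nuclear lamina protein lamin B1. The members are the genes whose symbol begins with MRPL (large subunit) or MRPS (small subunit) followed by a number and which have a probe annotated to that gene alone, pseudogenes left out. This gave 65 genes, 42 of the large and 23 of the small subunit, each with 1 probe, among 11199 features tested. Human RefSeq lists 77 such protein-coding genes, 49 large and 28 small. MRPL3, MRPL9, MRPL45, MRPL53, MRPL57, MRPS6, MRPS12, MRPS18A, MRPS18C and MRPS28 were represented only on probes shared with other genes, and MRPL20 and MRPL36 on no named probe, so these 12 are not analysed here. All 65 members lay above the filter on dim probes.

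RNA was measured on 10 exon arrays in 8 clones or cultures of DLD-1. For knockdown, cells expressed a short hairpin RNA (shRNA) that targets LMNB1, either from construct V2LHS_62673 in single cell clones 8, 9 and 12 with 1 array each, or from construct V2LHS_62675 in clone 2 with 3 arrays. The negative controls were wild type cells, untransfected and 1 array, and 3 clones with an empty vector, 1 array each. All cultures except the wild type were kept under puromycin, so transfection, cloning and drug cannot be told apart where wild type cells are compared. V2LHS_62675 and the wild type are 1 clone or culture each, and the 3 arrays of clone 2 are not 3 clones. The titles of those 3 arrays name clone 12 and call them biological replicates, whereas their descriptions and the design text name clone 2, which was followed.

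Mitochondria carry their own ribosome, which translates the few proteins encoded by mitochondrial DNA, all of them subunits of the oxidative phosphorylation complexes. Its RNA comes from the mitochondrial genome, but its proteins are encoded in the nucleus, made in the cytosol and imported. Many descend from bacterial ribosomal proteins, and others were added in the mitochondrial lineage. Their genes are expressed in all cell types that respire and commonly respond together to growth and to the nuclear regulators of mitochondrial biogenesis.

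The arrays were alike except that of clone 8. Its median was 7.62 log2 units, against 7.34 to 7.41 on the other 9 arrays, and it correlated with them at 0.915 to 0.926 over all probes, against 0.986 to 0.994 among the others. The comparisons were therefore also run without clone 8. The probe for LMNB1, which is shared with PCIF1, was lower in the knockdown (7.45 to 7.79 on 6 arrays) than in the wild type (9.52) and the empty vector clones (8.84 to 9.17). Of the colon epithelium markers, 10 of 12 lay above the filter, EPCAM, KRT8 and CDH17 among them, while KRT20 and CEACAM5 did not. Of the fibroblast markers 4 of 6 lay above it, of the leukocyte markers with a probe 2 of 5 and of the endothelial markers 2 of 4, with DCN, LUM, PTPRC, CD3E, LYZ, PECAM1 and KDR below it. The 10 epithelial markers had a median difference of -0.08 between knockdown and controls, and without clone 8 all 10 were lower in knockdown (median -0.11). With all clones the 4 fibroblast, 2 leukocyte and 2 endothelial markers above the filter were all higher in knockdown, with medians of 0.22, 0.13 and 0.18. Without clone 8, 3 of the 4, 1 of the 2 and both endothelial markers were higher, with medians of 0.01, 0.05 and 0.04. The part of this in the results was not tested. With so few arrays, their number limits the precision of each comparison.

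Set against the mean of the 3 empty vector clones, the mitochondrial ribosomal protein genes were shifted in opposite directions in different clones, not in a common direction in knockdown. The median difference of the 42 large subunit genes was -0.19 log2 units in clone 8, 0.02 in clone 9, -0.03 in clone 12 and 0.22 in clone 2, and it was 0.27 in wild type cells. The median difference of the 23 small subunit genes was -0.37, 0.03, -0.09 and 0.10 in the same clones and 0.22 in wild type cells. Both subunits therefore took the same sign in each of the 5, and clones 9 and 12 lay nearest to the empty vector clones. The 3 empty vector clones had large subunit medians of 0.04, -0.02 and -0.03 around their own mean (SD 0.043), and small subunit medians of 0.03, 0.01 and -0.05 (SD 0.042). In bulk RNA, fewer cells expressing a gene and less RNA per cell cannot be told apart. Over all features tested, the median difference was 0.18 in clone 8 and between -0.01 and 0.02 in clones 9, 12 and 2 and in the wild type. The 0.18 in clone 8 is not a background at like signal. For probes with a mean level of 9.70 or more, the clone 8 median was -0.74 over all features and -0.64 over the members. For probes below that level the medians were 0.29 and 0.15.

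**Figure D1:**
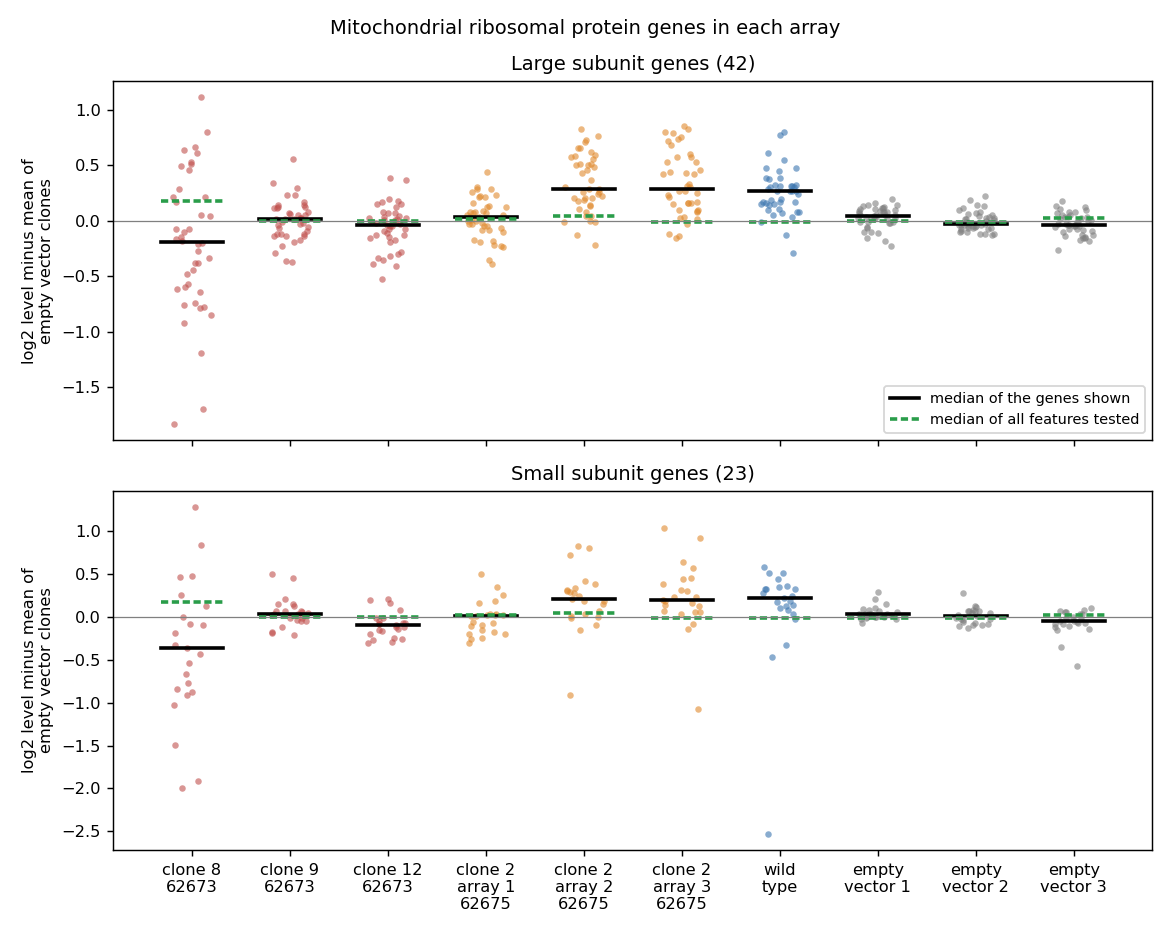
Each point is 1 gene in 1 array, as its log2 level minus the mean of the empty vector clones, with large subunit genes above and small subunit genes below. Black bars mark the median of the genes shown and green dashed bars the median of all 11199 features. Arrays 2 and 3 of clone 2 and the wild type array have medians of 0.19 to 0.29 in both panels, array 1 of clone 2 lies near 0, and clone 8 shows the widest scatter.

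The raised medians of clone 2 came from arrays 2 and 3 and not from array 1. The large subunit median was 0.04 in array 1, 0.29 in array 2 and 0.29 in array 3, and the small subunit median was 0.01, 0.21 and 0.19. Arrays 2 and 3 were both higher than array 1 in 49 of the 65 members, 33 large and 16 small, against 39.6% of all features. The members' median SD over the 3 arrays of clone 2 was 0.22, against 0.12 over all features, whereas their median SD over the 3 different empty vector clones was 0.09, against 0.10 over all features. For these genes, repeats labelled as 1 clone thus differed more than separate control clones.

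Array 1 of clone 2 lay closer to clones 9 and 12 of the other construct than to arrays 2 and 3 in 54 of the 65 members, which is 83.1%, against 57.2% of all features. The median absolute distance of the members was 0.38 between the mean of arrays 2 and 3 and array 1, and 0.09 between array 1 and the mean of clones 9 and 12. Array 1 also lay near the empty vector clones, with a signed median difference of 0.02 from their mean over the members (quartiles -0.10 and 0.13). The count of 54 therefore does not set clones 9 and 12 apart from the empty vector clones. MRPL46, a protein of the large subunit with no bacterial counterpart, was among the 54, at 10.78 on array 1 and 10.12 and 10.20 on arrays 2 and 3. MRPL46 was 10.68 in clone 9, 10.73 in clone 12, 10.07 in clone 8, 10.50 in the wild type and 10.38, 10.39 and 10.24 in the empty vector clones. Array 1 thus sat with clones 9 and 12, above all controls, and arrays 2 and 3 below all controls. MRPL24, which lies at the polypeptide exit tunnel, was 8.41 on array 1 and 9.06 and 9.23 on arrays 2 and 3. It was 8.85 in clone 8, 8.44 in clone 9 and 8.42 in clone 12, against 8.95 in the wild type and 8.82, 8.81 and 8.77 in the empty vector clones. Here too array 1 matched clones 9 and 12 and not the arrays that share its label. Whether array 1 carries the right label was not tested.

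**Figure D2:**
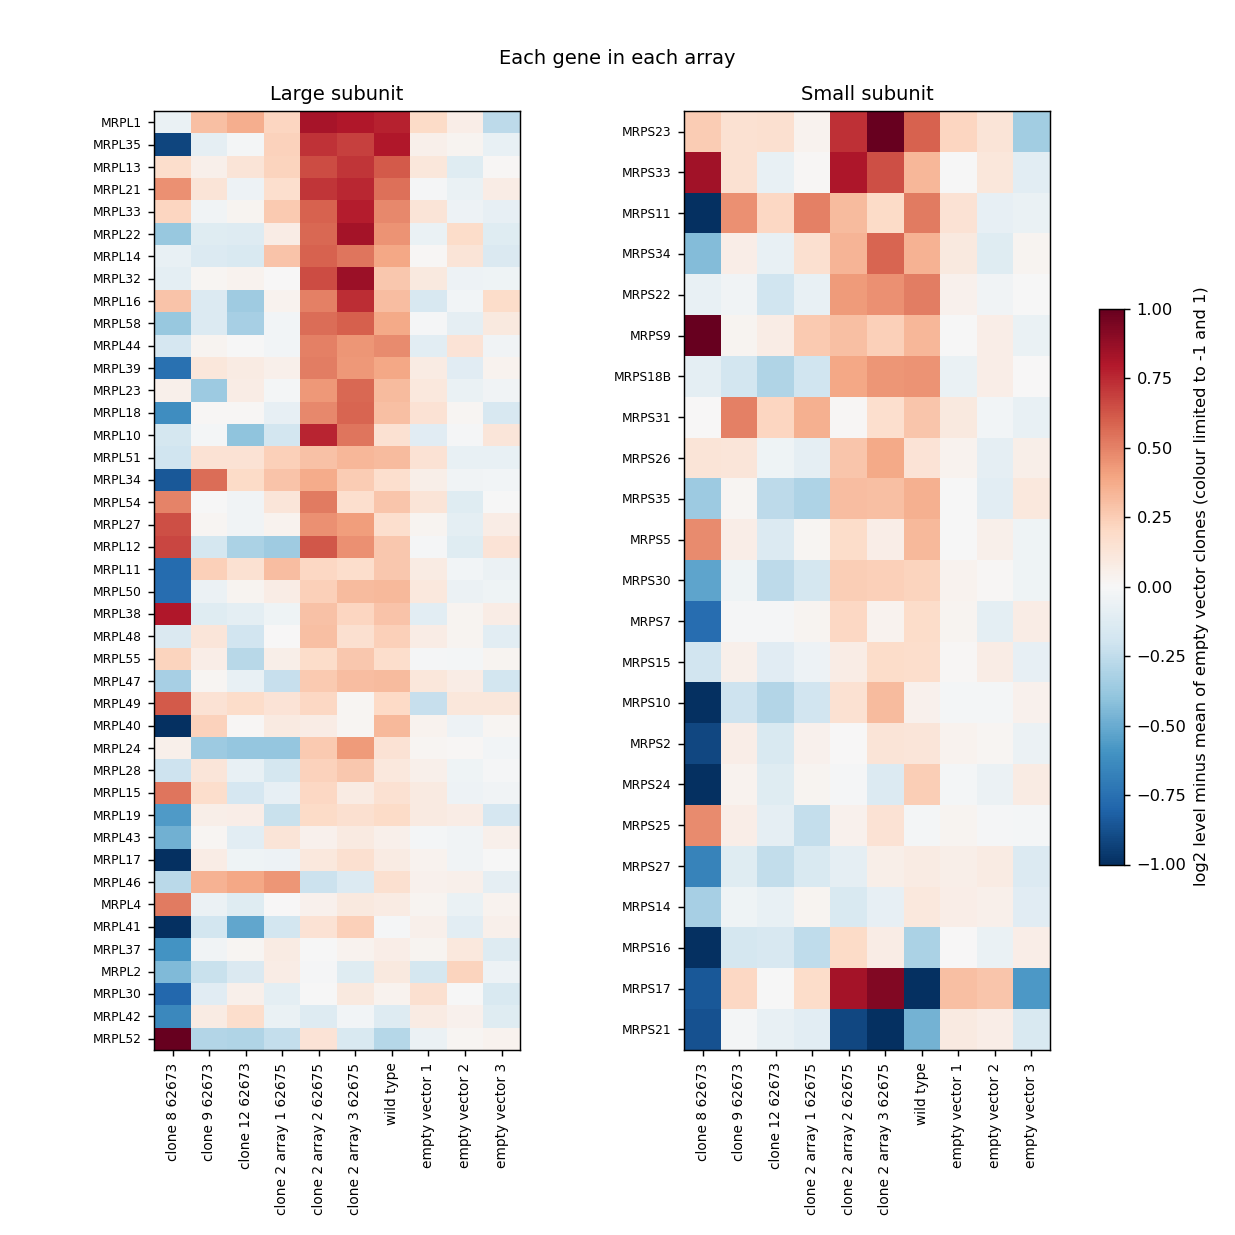
Rows are the 42 large subunit genes and the 23 small subunit genes, columns the 10 arrays, and colour the log2 level minus the mean of the empty vector clones, limited to -1 and 1. Rows are ordered by their mean over the 3 arrays of clone 2 and the wild type. Arrays 2 and 3 of clone 2 and the wild type share red rows in the upper part, and array 1 of clone 2 is paler.

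The question of the study's main contrast is what differs between the 4 LMNB1 knockdown clones and the 4 negative controls. The p-values reflect how clones vary among themselves, and where clone 2 or the wild type is compared alone, their spread is taken from the other groups. No mitochondrial ribosomal protein gene passed limma's test at an adjusted p of 0.05 there, and neither did any other feature (background 0%). None of the 65 had an unadjusted p under 0.05 either, against 2.29% of all features (0.795% higher and 1.49% lower). Of the members, 25 were higher and 40 lower in knockdown, with a median difference of -0.09, whereas over all features 56.0% were higher and the median was 0.04. No member was higher or lower in every knockdown clone than in every control (background 1.59% and 1.54%). The members' differences ran from -0.62 (SE 0.34) for MRPL41 to 0.63 (SE 0.58) for MRPS17, and without clone 8 from -0.25 (SE 0.12) for MRPL24 to 0.92 (SE 0.60) for MRPS17. MRPS17 averaged 8.27 in the knockdown clones, 8.56 in them without clone 8, and 8.27 in the empty vector clones. Its differences here thus lean on the single wild type array, at 5.74.

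On the lower side, the smallest p belonged to MRPS27, a small subunit protein with pentatricopeptide repeats, the RNA-binding motif of many organelle proteins. MRPS27 was 9.88, 10.42 and 10.29 in clones 8, 9 and 12 and 10.48 in clone 2, against 10.63 in wild type cells and 10.60, 10.62 and 10.40 in the empty vector clones. Its mean was 10.27 ± 0.27 in knockdown and 10.56 ± 0.11 in controls (SD, n = 4 each), and clones 9 and 2 overlapped the controls. The difference was -0.29 (SE 0.15, adjusted p = 0.761 in limma), and -0.16 (SE 0.09) without clone 8. MRPL41, a large subunit protein also studied for a role in apoptosis, averaged 11.08 ± 0.84 in knockdown and 11.69 ± 0.07 in controls (n = 4 each, limma adjusted p = 0.761). Clone 8 read 9.87 and the other knockdown clones 11.17 to 11.76, and the difference of -0.62 was -0.21 (SE 0.13) without clone 8. MRPL2, from the conserved core of the large subunit, averaged 8.86 ± 0.18 in knockdown and 9.09 ± 0.17 in controls (difference -0.23, SE 0.14), and without clone 8 the difference was -0.15 (SE 0.11).

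On the higher side stood MRPL49, MRPS33 and MRPS9, and clone 8 led each of them. MRPS9, a protein of the small subunit head, was 8.52 in clone 8 but 7.26, 7.31 and 7.50 in clones 9, 12 and 2, against 7.56 in the wild type and 7.23, 7.30 and 7.17 in the empty vector clones. MRPL49 averaged 7.38 ± 0.23 in knockdown and 7.17 ± 0.19 in controls, and MRPS33 7.99 ± 0.40 and 7.72 ± 0.19 (n = 4 each). Their adjusted p in limma was 0.761 each, and without clone 8 their differences were 0.10, 0.10 and 0.04 for MRPL49, MRPS33 and MRPS9 (limma adjusted p of 0.901, 0.935 and 0.967).

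Without clone 8 the main contrast remained without a call among members (background 0%), with 27 higher, 38 lower and a median of -0.02. The exception in rank was MRPL34, the counterpart of a very short bacterial large subunit protein. MRPL34 was 10.57 in clone 9, 10.21 in clone 12 and 10.32 in clone 2, against 10.19 in wild type cells and 10.07, 9.98 and 9.99 in the empty vector clones. All 3 remaining knockdown clones lay above all 4 controls, which 3.44% of all features also did, and the difference was 0.31 (SE 0.10, adjusted p = 0.712 in limma). It was also the only member with an unadjusted p under 0.05, against 6.46% of all features (3.14% higher and 3.32% lower). Clone 8, at 9.17, lay below all controls, so that with all clones the difference was 0.01 (SE 0.26).

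In clone 8 the members split by probe signal, as did the other features. Of the 33 members at or above the members' median signal of 9.70, 31 were lower in clone 8 than the mean of the empty vector clones, with a median of -0.64. Of the 32 members below it, 12 were lower, with a median of 0.15. Over all features the same split gave 81.3% lower with a median of -0.74 at or above that signal and 35.6% lower with a median of 0.29 below it. The widest differences of single members in clone 8 were -1.99 for MRPS10 and 1.29 for MRPS9. In wild type cells no such split was seen, with medians of 0.25 and 0.26 for the brighter and the dimmer members. The part of the array's own deviation in the clone 8 differences was not tested.

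**Figure D3:**
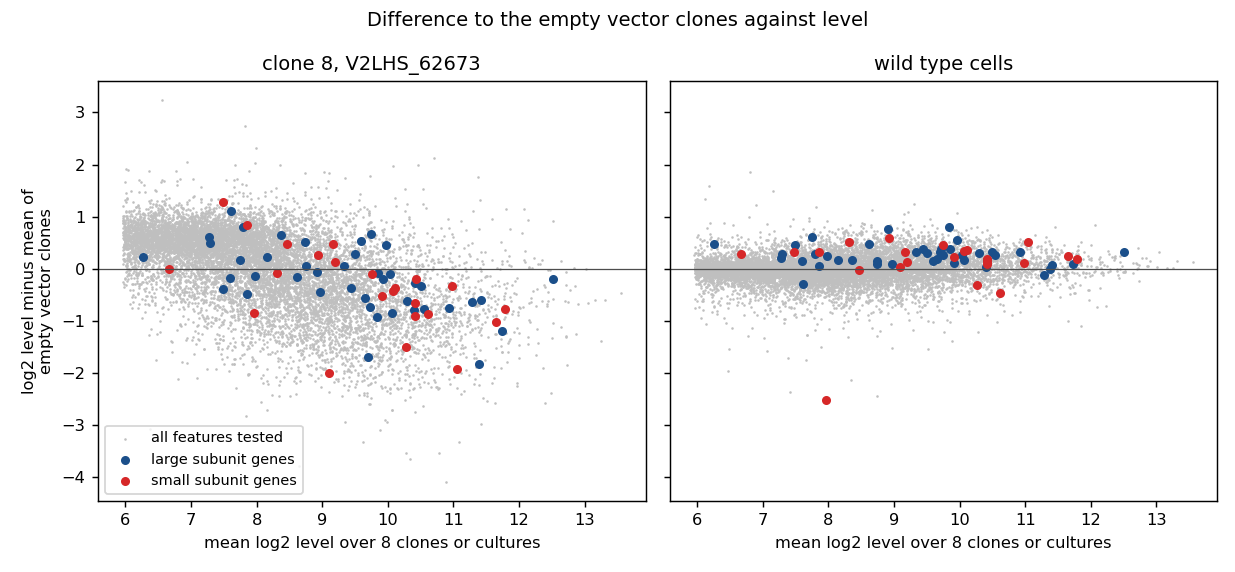
The x axis is a probe's mean log2 level over the 8 clones or cultures, and the y axis its log2 level in clone 8 (left) or in wild type cells (right) minus the mean of the empty vector clones. Grey points are all 11199 features, blue the large and red the small subunit genes. In clone 8 members and other features fall with signal, and in the wild type most members lie above 0 at every signal, with MRPS17 far below.

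Construct V2LHS_62673 alone showed no call among members against the empty vector clones, with all 3 clones (background 0%) or with clones 9 and 12 (background 0.991%, of which 0.304% higher and 0.688% lower). With all 3 clones, 22 members were higher and 43 lower, with a median of -0.13, and none had an unadjusted p under 0.05, against 3.21% of all features (0.848% higher and 2.36% lower). With clones 9 and 12, 25 were higher and 40 lower, with a median of -0.02, and 5 higher and 7 lower members had an unadjusted p under 0.05, against 6.71% and 9.22% of all features, 15.9% in either direction. Both clones lay above all 3 empty vector clones in 8 members (MRPL1, MRPL11, MRPL34, MRPL42, MRPL46, MRPL49, MRPS11 and MRPS31), against 15% of all features. Both lay below them in 9 (MRPL12, MRPL24, MRPL41, MRPL52, MRPL58, MRPS10, MRPS16, MRPS18B and MRPS22), against 17.3%. Neither share of the members, 12.3% and 13.8%, exceeded its background.

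Among these, MRPL24 had the smallest p, with a difference of -0.38 (SE 0.09, adjusted p = 0.0766 in limma) between clones 9 and 12, at 8.43 ± 0.02 (n = 2), and the empty vector clones, at 8.80 ± 0.03 (n = 3). MRPL46 differed by 0.37 (SE 0.09, adjusted p = 0.0965), MRPL34 by 0.37 (SE 0.12, adjusted p = 0.151) and MRPS31 by 0.36 (SE 0.11, adjusted p = 0.155), all by limma. MRPL52, a large subunit protein with no bacterial counterpart, was 7.30 and 7.29 in clones 9 and 12, against 7.54, 7.61 and 7.63 in the empty vector clones, a difference of -0.30 (SE 0.09, adjusted p = 0.149 in limma). Clone 8, at 8.71, lay above them all and turned the sign of MRPL52 to 0.17 (SE 0.37). With all 3 clones, MRPL41 had the smallest p on the lower side (-0.85, SE 0.40) and MRPL49 on the higher (0.31, SE 0.19), with an adjusted p of 0.742 each in limma. Without clone 8 these differences were -0.35 (SE 0.12) for MRPL41 and 0.16 (SE 0.12) for MRPL49. MRPL58, a peptidyl-tRNA hydrolase built into the large subunit that can release stalled chains, differed by -0.28 (SE 0.15) with all 3 clones and by -0.23 (SE 0.10) without clone 8.

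Clone 2 of construct V2LHS_62675 carried higher levels of most members than the empty vector clones. Of the 65, 56 were higher and 9 lower, with a median of 0.17, whereas over all features 56.4% were higher and the median was 0.02. The large subunit had 38 of 42 higher and the small subunit 18 of 23. Array 2 alone lay above all 3 empty vector clones in 53 members (background 38.2%) and array 3 in 51 (background 33%), but array 1 only in 19 (background 33.4%). All 3 arrays did so in 13 members, which is 20% against a background of 13.3%. These were MRPL1, MRPL11, MRPL13, MRPL14, MRPL21, MRPL33, MRPL34, MRPL35, MRPL51, MRPL55, MRPS9, MRPS11 and MRPS34.

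With all clones in the fit no member passed in this comparison (background 0%), and 3 members, all higher, had an unadjusted p under 0.05, against 2.64% of all features (1.07% higher and 1.57% lower). With clone 8 left out, which lowers the spread and leaves the difference as it was, 6 members passed limma's test, against 3.74% of all features (1.54% higher and 2.21% lower). MRPL35, MRPL21, MRPL33, MRPL32 and MRPL13 rose, all of the large subunit, and MRPS21 of the small subunit fell. An unadjusted p under 0.05 was reached by 23 higher members and 1 lower one, against 9.8% and 8.36% of all features, 18.2% in either direction. These calls rest on few arrays. The share of all features called under the settings that follow is not given, so those counts have no background. The count was 0 without array 3 or without empty vector clone 2, 1 without empty vector clone 3, 2 without array 2, and 20 without array 1.

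MRPL35, which sits in the central protuberance and is studied in yeast for its role in respiratory complex assembly, was 10.02, 10.52 and 10.47 on the arrays of clone 2, against 9.85, 9.82 and 9.72 in the empty vector clones. All 3 arrays lay above the controls, and the difference was 0.54, or 1.46-fold (SE 0.12, adjusted p = 0.0349 in limma without clone 8, 1.00 with it). MRPL21, the homologue of bacterial L21, was 9.93, 10.48 and 10.52 in clone 2, against 9.75, 9.70 and 9.84 in the empty vector clones (difference 0.54, SE 0.13, limma adjusted p = 0.0424). MRPL33, a small protein near the tRNA exit site, was 6.37, 6.70 and 6.90 in clone 2, against 6.24, 6.06 and 6.03 (difference 0.55, SE 0.13, limma adjusted p = 0.0424). In both, array 1 was the lowest of clone 2 yet still above the empty vector clones.

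MRPL32, whose maturation by the m-AAA protease is a known control point of mitoribosome assembly, was 9.94, 10.59 and 10.80 in clone 2, against 10.04, 9.89 and 9.89 in the empty vector clones. Array 1 lay within the range of the empty vector clones, so the rise of 0.50 (SE 0.12, limma adjusted p = 0.0460) came from arrays 2 and 3. MRPL13, the homologue of bacterial L13, was 7.78, 8.21 and 8.27 in clone 2, against 7.67, 7.43 and 7.57 (difference 0.53, SE 0.13, limma adjusted p = 0.0483). MRPS21, the homologue of bacterial S21, went the other way, at 10.78, 9.97 and 9.81 in clone 2, against 10.97, 10.95 and 10.73 in the empty vector clones. Its difference was -0.70, a 1.62-fold lower level (SE 0.13, limma adjusted p = 0.0205), and again array 1 lay within the range of the empty vector clones. Clone 8 had the MRPS21 level nearest to arrays 2 and 3, at 10.01. Its difference there was -0.87, on an array where all features with a mean level of 9.70 or more had a median of -0.74. The wild type, at 10.41, also lay below all 3 empty vector clones, and clones 9 and 12 read 10.87 and 10.81.

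**Figure D4:**
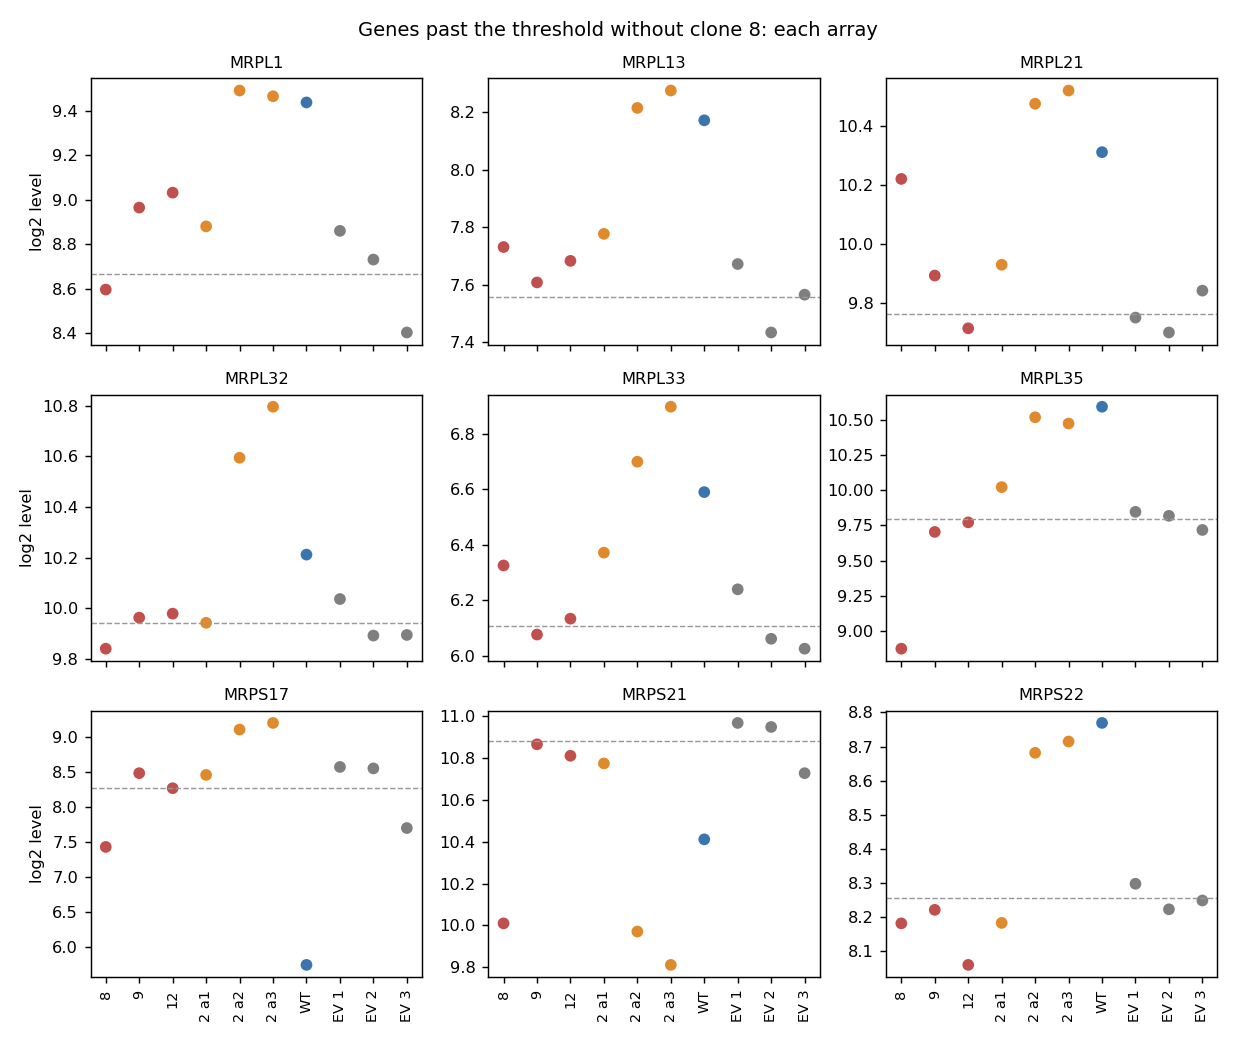
Each panel gives the log2 level of 1 gene in each array, for the 9 genes past the threshold in clone 2 or in the wild type against the empty vector clones when clone 8 is left out. Labels 8, 9 and 12 are the V2LHS_62673 clones (red), 2 a1 to 2 a3 the arrays of clone 2 (orange), WT the wild type (blue) and EV 1 to 3 the empty vector clones (grey, their mean dashed). Arrays 2 and 3 of clone 2 lie apart from array 1 in each panel.

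Wild type cells also carried higher levels of most members than the empty vector clones. Of the 65, 58 were higher and 7 lower, with a median of 0.25, whereas over all features 48.2% were higher and the median was -0.01. The wild type array lay above all 3 empty vector clones in 55 members, 36 large and 19 small (background 30.1%). It lay below all 3 in 6, which were MRPL42, MRPL52, MRPS16, MRPS17, MRPS21 and MRPS25 (background 30.4%). The wild type is 1 array, so these counts carry no replicate check.

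With all clones no member passed in the wild type comparison (background 0%), and 3 higher members and 1 lower had an unadjusted p under 0.05, against 2.59% of all features (1.18% higher and 1.41% lower). With clone 8 left out, 6 passed, against 3.57% of all features (1.68% higher and 1.89% lower). MRPL35, MRPL13, MRPL1, MRPL21 and MRPS22 were higher and MRPS17 lower. An unadjusted p under 0.05 was reached by 27 higher and 4 lower members, against 10.3% and 9.45% of all features, 19.7% in either direction. The count of 6 was 2 without empty vector clone 2, 1 without empty vector clone 3, 3 after quantile normalization and 1 with every array as a replicate. Wild type and clone 2 were compared with the same empty vector clones, so their shared direction is not independent. The counts under other settings have no background share over all features here.

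MRPL35 was 10.59 in wild type cells and 9.79 ± 0.07 in the empty vector clones (n = 3), a difference of 0.80, or 1.74-fold (SE 0.12, limma adjusted p = 0.0102 without clone 8). MRPL1, which forms the mobile stalk beside the tRNA exit site, was 9.44 in wild type cells, against 8.86, 8.73 and 8.40 in the empty vector clones (difference 0.77, SE 0.16, limma adjusted p = 0.0329). MRPL1 was also above all empty vector clones in clones 9 and 12, at 8.96 and 9.03, and on the arrays of clone 2, at 8.88, 9.49 and 9.46. Only clone 8, at 8.60, lay within the range of the empty vector clones for this gene. MRPL13 was 8.17 in wild type cells and 7.56 ± 0.12 in the empty vector clones (difference 0.61, SE 0.13, limma adjusted p = 0.0320). MRPL21 was 10.31 and 9.76 ± 0.07 in the same order (difference 0.55, SE 0.13, limma adjusted p = 0.0426).

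MRPS22, a small subunit protein with no bacterial counterpart whose mutation causes a mitochondrial disease in humans, was 8.77 in wild type cells and 8.30, 8.22 and 8.25 in the empty vector clones (difference 0.51, SE 0.12, limma adjusted p = 0.0449). MRPS22 was 8.18, 8.68 and 8.71 on the arrays of clone 2 and 8.18, 8.22 and 8.06 in clones 8, 9 and 12. Arrays 2 and 3 of clone 2 again lay with the wild type. Array 1 lay within the range of the V2LHS_62673 clones and just under that of the empty vector clones.

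MRPS17, the homologue of bacterial S17, showed the largest difference of any member. It was 5.74 in wild type cells, which is under the filter level of 5.96 for a probe's mean, against 8.57, 8.55 and 7.70 in the empty vector clones. It was 7.43, 8.48 and 8.27 in clones 8, 9 and 12 and 8.46, 9.10 and 9.20 on the arrays of clone 2. Every transfected array lay above the wild type array. The difference of the wild type from the empty vector clones was -2.53 on the log2 scale (SE 0.28, limma adjusted p = 0.0050 without clone 8, 1.00 with it), and no fold is given because the wild type signal lay among the dim probes. MRPS17 also had the widest range of all members over the empty vector clones, 0.87, followed by MRPS23 with 0.56 and MRPL1 with 0.46. The narrowest ranges were those of MRPL55 (0.047), MRPL24 (0.050) and MRPS25 (0.051), and the median range of the members was 0.17, against 0.19 over all features.

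**Figure D5:**
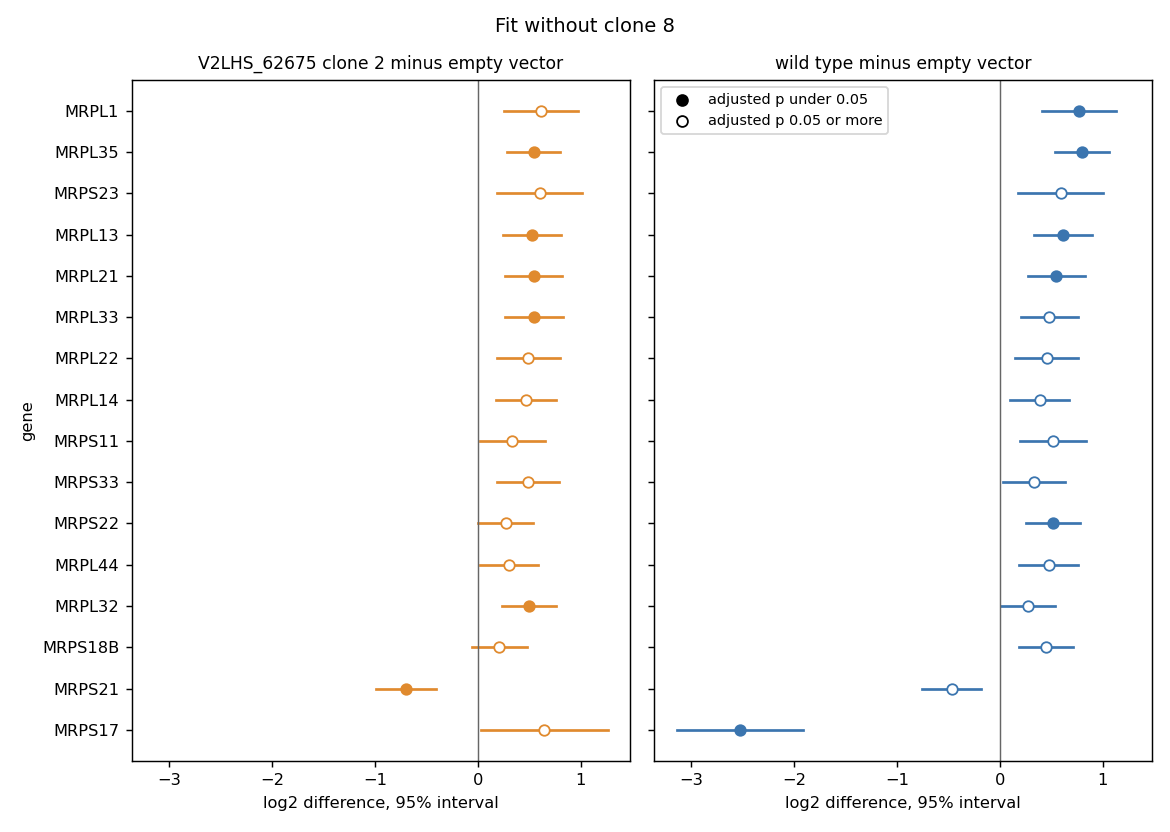
Log2 differences of V2LHS_62675 clone 2 (left) and wild type cells (right) from the empty vector clones, with 95% intervals from the limma fit without clone 8, for the 16 genes with an unadjusted p under 0.01 or a call in either comparison. Filled points have an adjusted p under 0.05, 6 in each panel. All but MRPS17 and MRPS21 lie above 0 in both panels, and MRPS17 takes opposite signs.

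Clone 2 was also compared with the V2LHS_62673 clones directly. Counts given below with a further clone or array left out have no background share over all features. With all clones 54 members were higher in clone 2 and 11 lower, with a median of 0.33, while over all features 45.1% were higher and the median was -0.05. No member passed (background 0%), and 6, all higher, had an unadjusted p under 0.05, against 2.22% of all features (1.45% higher and 0.777% lower). MRPL58, MRPL22 and MRPL14 had the smallest p, with differences of 0.66 (SE 0.21), 0.70 (SE 0.23) and 0.59 (SE 0.20) and an adjusted p of 0.931 each in limma. Against clones 9 and 12 alone the median was 0.21, with 55 higher, and 2 members passed, against 2.15% of all features (0.929% higher and 1.22% lower). MRPL35 was 0.60 higher in clone 2 (SE 0.12, limma adjusted p = 0.0403) and MRPS21 0.65 log2 units lower (difference -0.65, SE 0.14, limma adjusted p = 0.0417). Without array 1 of clone 2 the count of 2 became 21, and it became 0 when array 2, array 3, empty vector clone 2 or empty vector clone 3 was left out.

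MRPL14, at the subunit interface, was 10.07, 10.37 and 10.32 on the arrays of clone 2. It was 9.71, 9.65 and 9.64 in clones 8, 9 and 12. MRPL22, which lines the exit tunnel, was 7.52, 8.02 and 8.28 in clone 2. It was 7.07, 7.33 and 7.32 in clones 8, 9 and 12. MRPL58 was 9.42, 10.01 and 10.05 in clone 2 and 9.07, 9.31 and 9.12 in the V2LHS_62673 clones. All 3 genes were named for their small p in this comparison, so the gap between their values is not further evidence. Clone 2 entered the fit once, as an average, and the share of all features with such a gap is not given. In each of the 3, array 1 was the array of clone 2 nearest to the other construct. Without clone 8 their adjusted p in limma was 0.0524, 0.0609 and 0.0524, just outside the threshold.

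The levels of the 2 subunits were set against each other as a description, without a test. The large minus the small subunit median was 0.17 in clone 8, -0.01 in clone 9, 0.06 in clone 12, 0.12 in clone 2 and 0.05 in wild type cells, and it was 0.01, -0.03 and 0.01 in the empty vector clones. By median, clones 8, 12 and 2 and the wild type thus lay above the range of the empty vector clones, clone 8 and clone 2 furthest. Split by signal, the clone 8 medians at or above 9.70 were -0.63 for 20 large and -0.67 for 13 small subunit genes. Below 9.70 they were 0.11 for 22 large and 0.19 for 10 small subunit genes. The part of probe signal in the clone 8 difference between the subunits was not tested. On arrays 1, 2 and 3 of clone 2 taken singly it was 0.02, 0.08 and 0.10. By mean instead of median, clone 8 gave 0.19, clone 9 -0.04 and clone 2 0.09. Clone 12 gave 0.036 by mean, within the range of the empty vector clones, -0.019 to 0.037. The wild type gave 0.17 by mean, because MRPS17 lowers the small subunit mean to 0.09. MRPS30 carries a small subunit symbol, but its protein sits in the large subunit of the mammalian mitoribosome. MRPS30 was 9.45, 9.93 and 9.72 in clones 8, 9 and 12 and 9.80, 10.22 and 10.22 on the arrays of clone 2, against 10.20 in the wild type and 10.01, 9.99 and 9.93 in the empty vector clones. Counted as a large subunit gene, it changed the large minus small median to 0.15 in clone 8, 0.11 in clone 2 and 0.05 in the wild type.

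Within the large subunit, MRPL10, MRPL11 and MRPL12 are the proteins of the stalk that recruits translation factors. Against the empty vector mean all 3 were higher in clone 2 (0.37, 0.23 and 0.24) and in the wild type (0.16, 0.27 and 0.27). Their signs were mixed in clone 8 (-0.18, -0.77 and 0.67), clone 9 (-0.02, 0.23 and -0.18) and clone 12 (-0.41, 0.15 and -0.31). Their order over the arrays of clone 2 also differed. MRPL10 was 7.42, 8.37 and 8.14 and MRPL12 9.30, 10.28 and 10.12 on the arrays of clone 2, so that arrays 2 and 3 exceeded array 1. MRPL11 was 10.84, 10.74 and 10.70 there, with array 1 highest. In the empty vector clones MRPL10 read 7.50, 7.59 and 7.73, MRPL12 9.64, 9.54 and 9.79 and MRPL11 10.61, 10.51 and 10.47. Among the small subunit paralogs of bacterial S18 only MRPS18B had a probe of its own. MRPS18B was 9.65, 9.56 and 9.44 in clones 8, 9 and 12 and 9.54, 10.13 and 10.18 on the arrays of clone 2, against 10.19 in wild type cells and 9.67, 9.81 and 9.74 in the empty vector clones. Its wild type difference was 0.45 (SE 0.12, limma adjusted p = 0.0652 without clone 8).

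The 38 members with a bacterial counterpart and the 27 without one were mostly higher in both clone 2 and the wild type, and the difference between them was not tested. In clone 2, 33 of 38 and 23 of 27 were higher than in the empty vector clones, with medians of 0.22 and 0.15. In wild type cells, 35 of 38 and 23 of 27 were higher, with medians of 0.22 and 0.27. Without clone 8, all 6 members called in clone 2 have a bacterial counterpart, as do 5 of the 6 called in wild type cells, MRPS22 being the exception.

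Motifs of factors known for nuclear genes of mitochondria were counted in the promoters. RefSeq windows of 300 bases, 250 before and 50 after the gene start on GRCh38.p14, were held for 58 of the 65 members. Each motif was searched on both strands. CCGGAAG, the core bound by GABP and other ETS factors, occurred in 23 of 58 windows, which is 39.7%, against 14.2% of protein-coding promoters and 10.7% of all promoters in the table. The YY1 motif, read as AA, any base, ATGGCG, any base and C, occurred in 12, or 20.7%, against 3.28% and 2.27%. The motif of NRF1, a regulator of nuclear genes for respiration, read as GCGCA, any base and GCGC, occurred in 5, or 8.62%, against 8.57% and 6.28%. None of the 3 motifs contains another, and at least 1 of them was present in 34 members, 58.6%, against 23.2% and 17.2%. A match is a run of letters and not a bound site.

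The 250 bases before the start are printed for 4 genes that passed a test above, MRPL33 and MRPS21 in clone 2 and MRPS22 and MRPS17 in wild type cells, so that genes that were higher and lower can be compared. Capitals mark CCGGAAG or its reverse complement CTTCCGG, and all are on the plus strand of GRCh38.p14. MRPL33 is at chr2:27771469-27771718, MRPS21 at chr1:150293611-150293860, MRPS22 at chr3:139343744-139343993 and MRPS17 at chr7:55951627-55951876.
MRPL33: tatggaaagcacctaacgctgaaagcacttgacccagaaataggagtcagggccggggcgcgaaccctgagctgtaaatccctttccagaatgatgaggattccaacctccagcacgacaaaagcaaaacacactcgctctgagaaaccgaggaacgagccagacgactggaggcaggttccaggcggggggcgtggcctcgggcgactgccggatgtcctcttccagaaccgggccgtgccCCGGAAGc
MRPS21: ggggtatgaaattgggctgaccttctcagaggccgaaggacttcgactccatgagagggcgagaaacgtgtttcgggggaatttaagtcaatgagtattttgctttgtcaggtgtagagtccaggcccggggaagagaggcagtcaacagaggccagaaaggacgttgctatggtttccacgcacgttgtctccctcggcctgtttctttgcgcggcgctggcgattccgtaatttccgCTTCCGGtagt
MRPS22: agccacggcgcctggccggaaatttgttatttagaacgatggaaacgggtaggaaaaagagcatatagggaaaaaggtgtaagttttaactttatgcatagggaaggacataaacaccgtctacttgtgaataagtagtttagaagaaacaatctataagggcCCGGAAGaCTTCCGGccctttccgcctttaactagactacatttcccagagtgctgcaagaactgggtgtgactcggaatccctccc
MRPS17: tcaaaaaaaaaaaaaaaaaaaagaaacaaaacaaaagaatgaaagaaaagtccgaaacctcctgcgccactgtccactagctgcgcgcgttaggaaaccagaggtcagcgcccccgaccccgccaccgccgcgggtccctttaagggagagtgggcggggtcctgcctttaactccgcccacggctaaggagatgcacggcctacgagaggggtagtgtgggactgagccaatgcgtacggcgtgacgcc
MRPL33, which rose in clone 2, holds 1 match, and MRPS21, which fell there, holds 1 as well. MRPS22 holds a facing pair of matches, and MRPS17 holds none in this stretch. MRPS21 and MRPS22 each hold 1 more match in the 50 bases after the start, which are not printed. The presence of the motif thus does not separate higher from lower genes among these 4. MRPL1, higher in wild type cells, and MRPL32, higher in clone 2, also passed a test above. Neither is printed, and neither holds a CCGGAAG match in its window.

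Other genes of mitochondrial translation were followed through 4 lists. With all clones none of their tested members passed in any of the 5 comparisons. Of 5 other mitoribosome proteins without MRP symbols 3 were tested, and in knockdown against controls DAP3, the GTP-binding protein of the small subunit, differed by -0.24 (SE 0.16), GADD45GIP1 by 0.10 and CHCHD1 by 0.00, and without clone 8 by -0.21, 0.04 and -0.10. DAP3 was 9.17 in wild type cells and 8.74, 8.75 and 8.67 in the empty vector clones, which without clone 8 gave a difference of 0.45 (SE 0.12, limma adjusted p = 0.0686). Of 29 assembly and ribosomal RNA modification factors 22 were tested, with 16 higher in clone 2 (median 0.17), 17 higher in wild type cells (median 0.15) and 12 higher in knockdown (median 0.01), where 9 were higher without clone 8 (median -0.02). The smallest p among them in knockdown belonged to the GTPase NOA1 (-0.46, SE 0.28), the pseudouridine synthase RPUSD3 (-0.24, SE 0.15) and PTCD1 (0.20, SE 0.16), each with an adjusted p of 0.761 in limma. Without clone 8 these differences were -0.14 (SE 0.10) for NOA1, -0.17 (SE 0.13) for RPUSD3 and 0.06 (SE 0.06) for PTCD1.

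Of 20 translation factors 16 were tested, and 12 were higher in clone 2, 11 in wild type cells and 3 in knockdown, with medians of 0.08, 0.12 and -0.05. Without clone 8, 9 were higher in knockdown, with a median of 0.02. OXA1L, the inner membrane insertase that receives nascent chains, was 10.27 in clone 8 and 11.86 to 12.19 elsewhere in knockdown, against 11.94 in wild type cells and 12.12, 12.06 and 12.01 in the empty vector clones, and its difference of -0.42 (SE 0.37) was 0.03 (SE 0.10) without clone 8. MTRES1 differed by 0.41 (SE 0.23) and the elongation factor TSFM by -0.15 (SE 0.17), and without clone 8 by 0.16 (SE 0.10) and 0.01 (SE 0.08). GFM1, the mitochondrial elongation factor G1, was the only translation factor called, at 10.06 in wild type cells and 9.52, 9.37 and 9.18 in the empty vector clones (difference 0.70, SE 0.15, limma adjusted p = 0.0320 without clone 8). It was singled out after its values were seen.

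Of 17 genes of mitochondrial transcription and its nuclear regulators 12 were tested. PPARGC1A, the coactivator PGC-1α that drives mitochondrial biogenesis, was 6.91, 7.003 and 6.36 in clones 8, 9 and 12 and 5.52 in clone 2, against 6.84 in wild type cells and 7.09, 7.17 and 6.92 in the empty vector clones. Clone 2 thus had the lowest level of the 8, under the filter level of 5.96 for a probe's mean. Without clone 8 in the fit, its difference from the empty vector clones was -1.54 (SE 0.21). No fold is given because the clone 2 signal lay among the dim probes. Any relation of PPARGC1A to the levels of the members in clone 2 was not tested. Against clones 9 and 12 the PPARGC1A difference of clone 2 was -1.15 (SE 0.22). TFB2M, a mitochondrial transcription factor singled out after its values were seen, was 11.21 in wild type cells and 10.80, 10.68 and 10.61 in the empty vector clones (difference 0.51, SE 0.12, limma adjusted p = 0.0466 without clone 8). TFAM, which packages and transcribes mitochondrial DNA, differed by 0.20 (SE 0.13) and the helicase TWNK by 0.28 (SE 0.15) between knockdown and controls, and by 0.21 (SE 0.10) and 0.16 (SE 0.09) without clone 8. In that comparison 8 of the 12 genes were higher with all clones (median 0.03) and 5 without clone 8 (median -0.01). PPARGC1A itself differed there by -0.56 (SE 0.29) with all clones and by -0.71 (SE 0.28) without clone 8.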

How the data were processed

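Expression was measured on 10 exon arrays. The deposited values, taken as log2 from their range since neither scale nor summary is stated per the labels, were normalized by the authors in a way not given in the sources used here. Probes were named through the platform annotation and RefSeq (GRCh38.p14). Of 22011 probes 14432 had 1 gene symbol, 2408 several and 5171 none, and only the first kind was used, with 1 exception for LMNB1. A probe was kept if its mean reached the 25th percentile of all probes (5.96). The 3 arrays of clone 2 were averaged. Differences were tested with limma 3.58.1 in R 4.3.3 (lmFit, eBayes, two-sided, Benjamini-Hochberg over 11199 features, threshold 0.05), knockdown against controls as 2 groups and the rest as contrasts of 4 groups, after a test on simulated data. Without clone 8, the same fits were repeated.

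The members and lists were chosen with earlier results of these data known. Named genes are, per comparison, up to 5 each way among those that passed, or the 3 each way with the smallest p where fewer than 3 passed, those whose groups did not overlap, the 3 widest and 3 narrowest over the empty vector clones, MRPS18B and MRPS30, and the first 3 of each other list by p. Other genes named were chosen after their values were seen. Alternatives were quantile normalization, median centring, array weights, other filters, a trended robust prior, and each clone or array left out. A further one removed the running median over 51 neighbouring genes along each chromosome.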

Additional observations from a re-analysis of the deposited data

Results flagged for a closer look

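Dixon's ratio divides a sample's gap to the nearest other sample by the range. Of 134 groups of 4 samples tested, 17 held a sample whose ratio exceeded the 95% critical value for 4 samples. Chance gives about 1 in 20 for independent groups, but these groups reuse the same samples, so no conclusion is drawn from the count. In 12 of the 17 the sample was clone 8 among the 4 knockdown clones. Clone 8 was low in MRPL11 (9.76), MRPL17 (10.7), MRPL19 (9.11), MRPL37 (10.9), MRPL40 (8.14), MRPS7 (11.1), MRPS11 (9.18), MRPS14 (10.7), MRPS16 (9.04) and MRPS24 (10.7), and high in MRPL49 (7.73) and MRPL52 (8.71). In MRPL40 the other knockdown clones read 9.84 to 10.07, and in MRPS11 11.30 to 11.56.

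Clone 2 stood apart from the other knockdown clones in MRPL14, at 10.3 against 9.64 to 9.71. Among the 4 controls the wild type stood apart in MRPL35 (10.6) and MRPS22 (8.77), empty vector clone 1 in MRPS25 (8.45) and empty vector clone 3 in MRPS27 (10.4). The 2 constructs differed, by limma without clone 8, in MRPL35 (0.60, adjusted p = 0.0403) and MRPS21 (-0.65, adjusted p = 0.0417), clone 2 minus clones 9 and 12.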

How the results depend on the processing

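The counts of genes past the threshold with all clones were 0 in each of the 5 comparisons. All counts in this section are of members alone. For settings other than leaving out clone 8, the share of all features called is not given. With array weights they were 1 for V2LHS_62673 and 6 for clone 2 and 6 for the wild type against the empty vector clones, and 7 between the constructs. With 1 clone or array left out they ranged from 0 to 6, 0 to 6 and 0 to 2 in the last 3, the highest without clone 8. Clone 2 and the empty vector arrays share only replicate numbers (same-number correlations 0.029, -0.153 and -0.235), and the replicate block gave 8 calls, against 5 on the same 6 arrays without it.

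With clone 8 left out together with 1 more choice, added after the data were seen, the 6 calls of clone 2 became 1 with the running median, 3 with centring, 2 without the filter and 2 with quantile normalization, and 0 to 20 with 1 more clone or array left out. The 6 of the wild type became 1 with every array as a replicate and 3 with quantile normalization, and 1 to 9 on leaving out. The 2 between the constructs became 0 with the running median, centring or no filter, 6 with array weights or the trended robust prior and 7 with the 50th percentile filter, and 0 to 21 on leaving out. The 0 of V2LHS_62673 became 0 to 1.

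For knockdown against controls, the large subunit median of -0.073 was -0.0276 with array weights, 0.0050 with the empty vector clones alone, 0.0571 with these and no clone 8, 0.0362 with every array, -0.141 with centring and -0.153 to 0.0050 on leaving out. The small subunit median of -0.157 was -0.0404, -0.0923, 0.00117, -0.104 and -0.225 under the same settings, -0.0946 as a mean and -0.231 to -0.0403 on leaving out. For V2LHS_62673 the large median of -0.0762 was -0.0178 with array weights, -0.120 with the 50th percentile filter, -0.157 with centring and -0.154 to -0.0123 on leaving out. The small median of -0.193 was -0.0123 with array weights, -0.274 with centring, -0.113 with quantile normalization, -0.144 as a mean and -0.254 to -0.0332 on leaving out. For clone 2 quantile normalization gave 0.169 and 0.0469, and leaving out gave 0.158 to 0.297 and 0.0657 to 0.236. For the wild type quantile normalization gave 0.226 (large), the mean gave 0.0879 (small), and leaving out gave 0.235 to 0.270 and 0.216 to 0.235. Between the constructs the large median of 0.335 was 0.243 with array weights, 0.423 with centring, 0.239 with quantile normalization and 0.248 to 0.446 on leaving out. The small median of 0.333 was 0.246 with the running median, 0.117, 0.421 and 0.215 under the same 3, 0.286 as a mean and 0.151 to 0.406 on leaving out.

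Of single genes, 18 values of 4 genes changed sign. MRPL34 in knockdown (0.0082) was -0.0905 with the running median, -0.0598 with centring, -0.0762 without clone 2, and -0.160, -0.0392, -0.0171, -0.0141 and -0.000422 without clone 9, clone 12, empty vector clone 2, empty vector clone 3 or array 2 of clone 2, and 0.309 without clone 8. MRPL46 was -0.00415 without clone 12. For V2LHS_62673, MRPL34 (-0.0334) was 0.428 with array weights, 0.0361 with quantile normalization and -0.329 to 0.375 on leaving out, highest without clone 8. MRPL52 (0.174) was -0.275 with array weights and -0.296 to 0.411 on leaving out, lowest without clone 8. MRPL42 between the constructs (0.0566) was -0.137 with the running median, -0.176 with array weights, -0.0599 with quantile normalization and -0.200 to 0.207 on leaving out, lowest without clone 8. The cause of these changes was not tested.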
